A study of Mus musculus with 24 samples.

Results

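The growth hormone and IGF axis was followed here through 10 genes: Ghr, Prlr, Stat5b, Socs2, Cish, Bcl6, Igf1, Igfals, Igfbp1 and Igfbp2. They were taken by gene name from a table of 55421 genes, and all 10 were among the 13583 genes with enough counts to be tested. PolyA RNA was sequenced from hepatocytes, the parenchymal cells of the liver, which were isolated from 24 male mice by collagenase perfusion and a Percoll gradient. There were 6 mice in each of 4 groups, which combine age (young or old) with diet (ND or HFD). By the sample labels the young mice were C57BL/6N of 6 months and the old mice C57BL/6J of 24 months, and age cannot be told apart from substrain here. HFD was the 58y1 diet with 60% of its energy from fat, fed for 9 weeks, and ND was a Teklad chow by the labels. The paper names other ages, another normal diet and only C57BL/6. No group carried a transgene, an engineered deletion or a drug. The question was how age and HFD, alone and together, relate to the levels of these transcripts.

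Growth hormone from the pituitary binds its receptor on hepatocytes and activates the kinase Jak2, which phosphorylates Stat5b. Phosphorylated Stat5b enters the nucleus and induces Igf1, which the liver secretes into the blood, together with Igfals, a subunit that keeps circulating IGF-1 in a stable complex. It also induces Socs2 and Cish, which end the receptor's signal, and it represses Bcl6, a repressor that binds many of the same sites. Igfbp1 and Igfbp2 encode secreted proteins that bind IGF-1, and Igfbp1 is repressed by insulin. In rodents growth hormone comes in pulses in males and more continuously in females, and many liver genes differ between the sexes for this reason.

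STAT5 binds DNA at the 9-base motif TTCNNNGAA, which reads the same on both strands. The motif was searched in the RefSeq promoter windows of GRCm38.p6, from 250 bases before to 50 bases after each annotated start. Of the 10 genes, 9 were in that table, with 17 windows, and 6 windows of 4 genes held the motif (Cish, Bcl6, Igfals and Prlr). Among all 32851 windows 8.30% held it and 0.457% held it more than once. The matching stretches are shown 5′ to 3′ on the gene's strand, with the motif in capitals, because these windows show which of the 10 genes carry the motif near a start.
Cish, chr9:107296649-107296678, plus strand: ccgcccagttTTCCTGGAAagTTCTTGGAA
Bcl6, downstream start, chr16:23981323-23981491, minus strand: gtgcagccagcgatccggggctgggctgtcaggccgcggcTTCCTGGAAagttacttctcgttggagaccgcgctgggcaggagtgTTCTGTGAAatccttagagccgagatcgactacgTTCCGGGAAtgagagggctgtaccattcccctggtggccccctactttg
Bcl6, upstream start, chr16:23988922-23989010, minus strand: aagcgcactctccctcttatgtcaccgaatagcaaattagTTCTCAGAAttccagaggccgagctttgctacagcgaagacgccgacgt
Igfals, chr17:24878133-24878221, plus strand: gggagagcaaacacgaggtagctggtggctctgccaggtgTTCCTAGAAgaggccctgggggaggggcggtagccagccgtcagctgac
Prlr, chr15:10223756-10223844, plus strand: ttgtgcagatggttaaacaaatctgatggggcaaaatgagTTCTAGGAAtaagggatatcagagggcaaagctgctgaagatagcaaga

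The first Cish match began at base 1 of the annotated transcript and the second at base 12, inside the first exon of the GENCODE gene. Cish and Bcl6 each had a window with more than 1 match. The Bcl6 window with 3 matches lay in an intron of the annotated gene, before an internal start, and windows with at least 3 matches were 0.0335% of all. A second Igfals window, at an upstream start, held 1 match from 236 to 228 bases before the start (a first base at -236 and a last base at -228). The Prlr match lay in an intron before an internal start. A match describes the letters of a window and does not show that a factor was bound there in these cells.

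**Figure D1:**
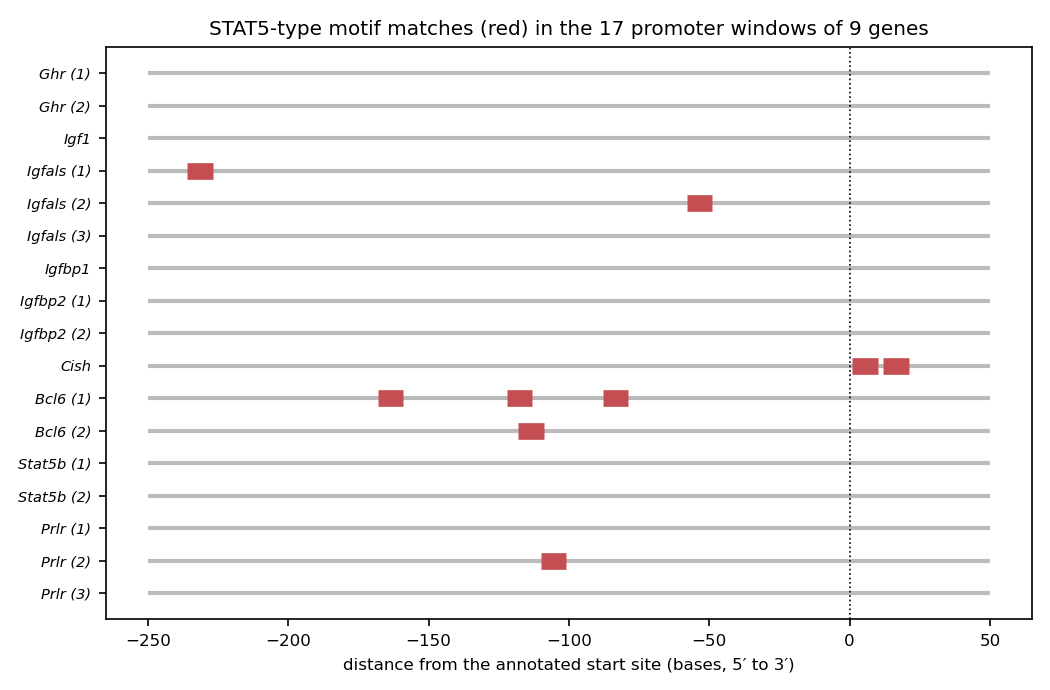
Positions of TTCNNNGAA matches (red) in the 17 promoter windows of the 9 genes in the RefSeq table. The x axis is the distance from each annotated start in bases, and each grey line is 1 window. The 2 Cish matches sit just after the start, and 1 of the 2 Bcl6 windows holds 3 matches.

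Total counts per mouse ranged from 9200332 to 22185069, with the lowest totals in old HFD. Levels are counts scaled to library size (CPM) with edgeR's TMM factors. The summed CPM of 9 hepatocyte markers was 55770 to 167900 over the 24 mice. The summed CPM of 29 macrophage, lymphocyte and endothelial markers was 17.5 to 215 (median 87.6) for young ND, 56.3 to 546 (median 243) for young HFD, 104 to 2175 (median 234) for old ND and 105 to 1319 (median 218) for old HFD. Old ND replicate 4 had both the highest sum of these markers and the lowest sum of hepatocyte markers. Old ND replicates 3 and 4 and old HFD replicates 4 and 6 were the 4 mice above 900 CPM, and results are given without them where that changed a call. In such bulk samples fewer hepatocytes and less RNA of a gene per hepatocyte cannot be told apart. DEGs passed edgeR's quasi-likelihood F test, fitted to all mice with group and batch as terms, at a Benjamini-Hochberg adjusted p of 0.05 over the 13583 genes. This test gives every adjusted p below unless another is named, and SE is the standard error of a log2 fold change.

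Per kilobase of exon, Igfbp2 was the most abundant of the 10 transcripts at 216 ± 99.4 CPM per kb (SD, n = 24 mice). Ghr at 61.7 ± 12, Igf1 at 56.4 ± 11.8 and Igfbp1 at 37.8 ± 29.2 CPM per kb came next, followed by Igfals at 25.9 ± 6.22. The place of Igfbp1 differed between groups, since its mean of 14.7 ± 10.8 CPM per kb for young HFD mice was below that of Igfals (31 ± 5.995), and its mean of 61.4 ± 37.9 for old ND mice was above those of Ghr (52.1 ± 13.2) and Igf1 (49.6 ± 4.88). By their means over all mice, and apart from Prlr, the receptor and secreted protein transcripts were thus more abundant than the intracellular ones. In single mice this did not always hold, since Igfbp1 was below Stat5b in young HFD replicate 2 (7.63 against 9.65 CPM per kb) and replicate 3 (1.775 against 6.77). Prlr had 9.97 ± 2.36 and Stat5b 8.62 ± 1.85 CPM per kb. Bcl6 (3.11 ± 2.28), Socs2 (2.32 ± 1.74) and Cish (2.30 ± 2.04 CPM per kb) were the lowest. Pooled over all mice, mean ± SD overlapped for Ghr and Igf1, for Prlr and Stat5b, and for the 3 lowest genes. It also overlapped for Igfbp1 and each of Ghr, Igf1, Igfals, Prlr and Stat5b. The order differed by group. For young ND mice the lowest Ghr (65.3) was above the highest Igf1 (59.0), but old HFD means were 56.2 ± 12.5 for Ghr and 68.45 ± 15.6 for Igf1. Prlr and Stat5b had 7.99 ± 1.93 and 10.5 ± 1.33 for young ND mice, and 11.3 ± 2.37 and 8.03 ± 1.17 for young HFD mice (SD, n = 6).

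Few of the 10 genes passed the test in any comparison. Between young HFD and young ND 1 gene was a DEG, Igfbp1, which was lower, while 1.59% of all tested genes were lower and 1.91% higher. For old HFD against old ND the count was 0 (all genes: 1.37% higher and 1.64% lower), with 3 of the 10 at an unadjusted p under 0.05 in edgeR (22% of all genes) and 1 DEG with DESeq2. For old ND against young ND the count was 0 (all genes: 7.26% higher and 1.24% lower), with 4 at an unadjusted p under 0.05 (22.2% of all genes) and 1 DEG with DESeq2. For old HFD against young HFD it was 0 (all genes: 1.82% higher and 0.42% lower), with 4 at an unadjusted p under 0.05 (21% of all genes) and 1 DEG with DESeq2. For old HFD against young ND it was 2, Igf1, which was higher, and Stat5b, which was lower (all genes: 17.3% higher and 12.9% lower). The age by diet interaction, the difference of the HFD effect between old and young mice, gave 0 of the 10 and 0% of all genes (9.18%, or 1247, at an unadjusted p under 0.05, and 7 DEGs with DESeq2), with 2 of the 10 at an unadjusted p under 0.05 in edgeR and 0 DEGs among the 10 with DESeq2. Beside the shares of all genes, counts this small among 10 do not set the axis apart. In young HFD over young ND, old HFD over old ND and old HFD over young HFD, 0 of the 10 genes had groups that did not overlap, and 4.81%, 1.26% and 0.802% of all genes did.

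**Figure D2:**
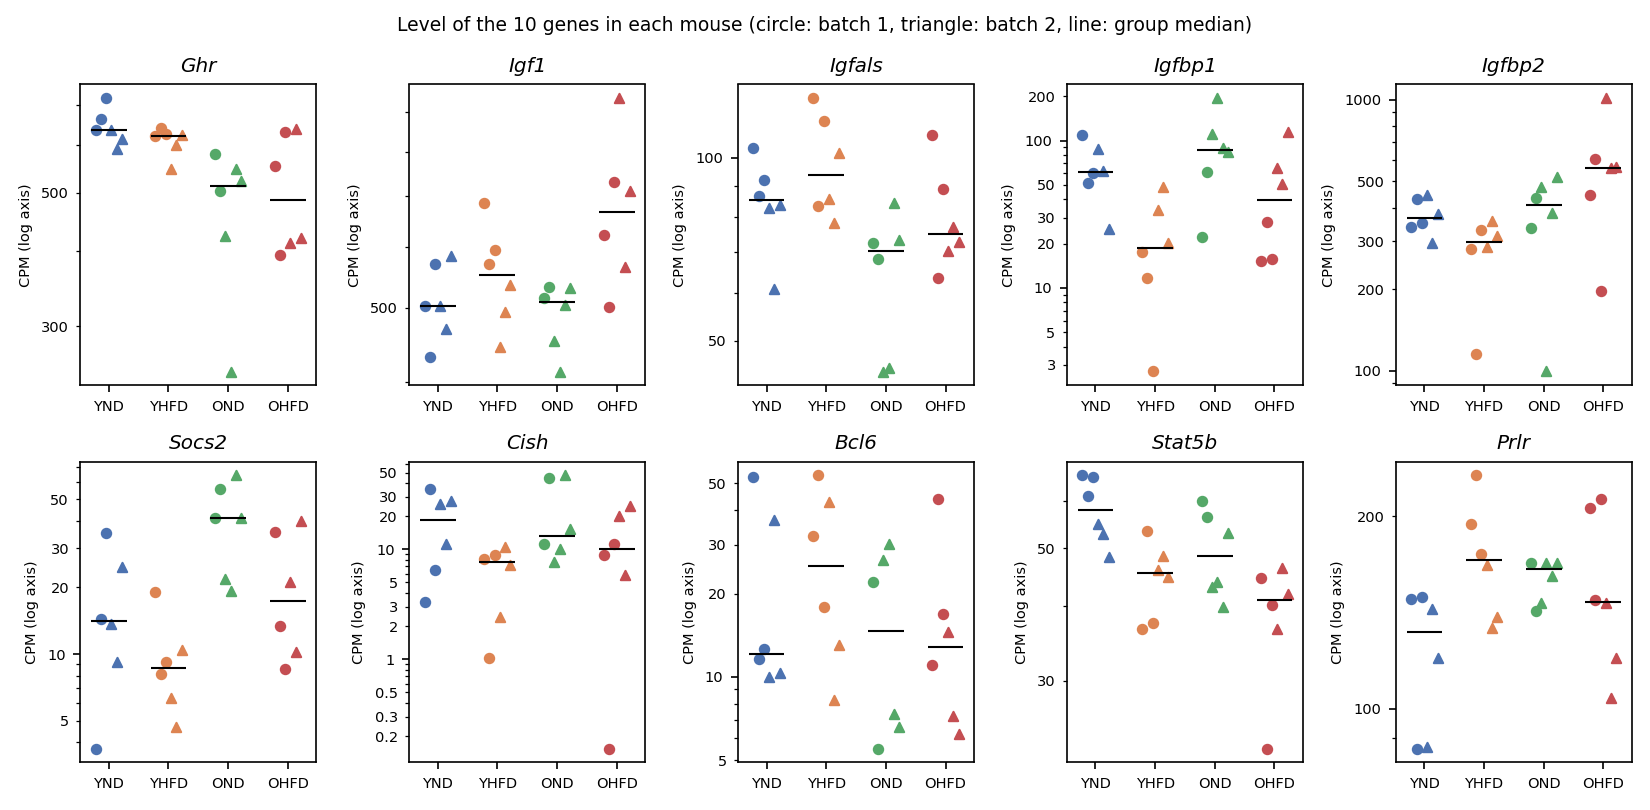
Level of each of the 10 genes in each of 24 mice, in CPM on a log axis, by group (YND and YHFD young, OND and OHFD old). Circles are mice of batch 1, triangles mice of batch 2, and lines group medians. Igfbp1 is low in young HFD, Socs2 is high in old ND, and Cish in old HFD replicate 2 is far below all other mice at 0.154 CPM.

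Ghr (ENSMUSG00000055737, chromosome 15 from 3317760 to 3583492) encodes the growth hormone receptor. Its lowest, median and highest levels were 591, 637 and 719 CPM for young ND mice, 547, 623 and 640 for young HFD mice, 252, 514 and 580 for old ND mice and 394, 487 and 638 for old HFD mice. All 6 old ND mice were below all 6 young ND mice, and 3.79% of all tested genes had groups without overlap in this comparison. The log2 fold change of Ghr in old ND over young ND was -0.43 ± 0.16 (SE, adjusted p = 0.0897), so it did not pass, and it was -0.30 in batch 1 and -0.50 in batch 2. The lowest mouse, old ND replicate 4, was the one with the highest sum of other cells' markers, and without the 4 mice above 900 CPM of these markers the log2 fold change was -0.24. The part of these markers in the difference was not tested. HFD and ND differed by a log2 fold change of -0.08 ± 0.15 (standard error) in young and 0.09 ± 0.15 in old mice.

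Prlr (ENSMUSG00000005268, chromosome 15 from 10177238 to 10349180) encodes the prolactin receptor, which signals through the same kinase and STAT. It had 86.5, 132 and 150 CPM (lowest, median, highest) for young ND mice, 134, 171 and 232 for young HFD mice, 142, 165 and 169 for old ND mice and 104, 147 and 213 for old HFD mice. All young HFD and all old ND mice were above the young ND median, but the groups overlapped. The log2 fold change was 0.49 ± 0.16 (SE, adjusted p = 0.0817) in young HFD over young ND, with 0.65 in batch 1 and 0.36 in batch 2. It was 0.44 ± 0.16 (SE, adjusted p = 0.0926) in old ND over young ND, with 0.30 and 0.46 by batch. Neither passed with edgeR, and both passed with DESeq2 (adjusted p = 0.0297 and 0.0451). An exon of Prlr shares 203 bases with Gm21973 on the same strand.

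Stat5b (ENSMUSG00000020919, chromosome 11 from 100780731 to 100850724) encodes the transcription factor that carries the signal to the nucleus. Its lowest, median and highest levels were 48.3, 58.1 and 66.3 CPM for young ND mice, 36.6, 45.4 and 53.5 for young HFD mice, 39.8, 48.5 and 60.1 for old ND mice and 23.1, 41.0 and 46.3 for old HFD mice. All 6 old HFD mice were below all 6 young ND mice, whereas 7.26% of all genes had no overlap in this comparison. Stat5b fell in old HFD relative to young ND, with a log2 fold change of -0.58 ± 0.15 (SE, adjusted p = 0.00556). In the same comparison 3 of 9 hepatocyte markers were lower and 1 higher (median log2 fold change -0.43), and 10 of 11 macrophage, 8 of 8 endothelial, 7 of 9 stellate cell and fibroblast and 3 of 4 tested lymphocyte markers were higher. The part of these cells in the difference of Stat5b, and in those of the gene lists below, was not tested. Stat5b was at -0.87 in batch 1 and -0.32 in batch 2, of which neither passed alone, and -0.61 (adjusted p = 0.0219) without the 4 mice rich in other cells' transcripts. With HFD the log2 fold change was -0.38 ± 0.14 in young (adjusted p = 0.127) and -0.36 ± 0.15 in old mice (adjusted p = 0.153). The 2 diet effects were of nearly the same size, and neither passed.

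Jak2, the kinase bound to both receptors, did not pass in any comparison, with 17.2 ± 2.86 to 19.8 ± 2.09 CPM (SD, n = 6) over the 4 groups. Stat5a, the close relative of Stat5b, was also below young ND in the old HFD group, by a log2 fold change of -0.46 ± 0.18 (SE, adjusted p = 0.0483). A list of 22 genes of growth hormone and prolactin signalling had 21 tested. In old HFD over young ND 4 of the 21 were higher and 7 lower (all genes: 17.3% and 12.9%), with a median log2 fold change of -0.21 beside 0.04 over all genes. The markers of hepatocytes and of other cells that moved in this comparison are given with Stat5b above. The lower ones included Ptpn11, a phosphatase, at -0.79 ± 0.16 (SE, adjusted p = 0.00149) and Sos1, an exchange factor of Ras, at -0.62 ± 0.13 (SE, adjusted p = 0.00211). The higher ones included Sirpa, a receptor abundant on macrophages, at 3.18 ± 0.60 (SE, adjusted p = 0.000845). In old ND over young ND 4 rose and 0 fell (median 0.09, all genes 7.26% higher and 1.24% lower). In young HFD over young ND 1 rose and 1 fell (median -0.12, all genes 1.91% and 1.59%), in old HFD over old ND 0 rose and 2 fell (median -0.36, all genes 1.37% and 1.64%), and in old HFD over young HFD 0 rose and 1 fell (median 0.01, all genes 1.82% and 0.42%). The number that fell with 1 mouse left out was 0 to 5 in old HFD over old ND and 0 to 3 in old HFD over young HFD, where 20 of the 24 fits moved the count of 1. Without the 4 mice rich in other cells' transcripts, old HFD over young ND again gave 4 higher and 7 lower, whereas old ND over young ND gave 0 in place of 4 and old HFD over old ND 1 higher and 0 lower. Over all genes 2605, 94 and 401 of 13593 passed in these 3 fits, in either direction, in place of 4100, 1155 and 409.

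The 2 that fell in old HFD relative to old ND were Stat3 and Socs3, the transducer and the feedback inhibitor of interleukin-6, which were chosen for mention after their values were seen. Stat3 had 140 ± 36.0 CPM in old ND mice and 95.1 ± 11.1 in old HFD mice (SD, n = 6), with a log2 fold change of -0.56 (adjusted p = 0.0363). Socs3 had 35.3 ± 45.2 CPM in old ND, with 1 mouse at 126, and 9.30 ± 3.47 in old HFD mice, with a log2 fold change of -1.79 (adjusted p = 0.0396). The log2 fold changes without the 4 mice were -0.52 for Stat3 (adjusted p = 0.0764) and -1.39 for Socs3 (adjusted p = 0.0649), and neither passed.

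Socs2 (ENSMUSG00000020027, chromosome 10 from 95385362 to 95417180) encodes an inhibitor that takes the growth hormone receptor to degradation. Its lowest, median and highest levels were 3.74, 14.04 and 35.2 CPM for young ND mice, 4.67, 8.67 and 19.1 for young HFD mice, 19.2, 41.0 and 64.0 for old ND mice and 8.53, 17.3 and 39.8 for old HFD mice. All 6 old ND mice were above the young ND median and 4 were above every young ND mouse. The log2 fold change in old ND over young ND was 1.30 ± 0.45 (SE, adjusted p = 0.0736), which batch 1 gave as 1.47 and batch 2 as 1.19. In old HFD over young HFD it was 1.20 ± 0.46 (SE, adjusted p = 0.143), 0.63 and 1.72 by batch. HFD went with a log2 fold change of -0.82 ± 0.45 in young and -0.92 ± 0.44 in old mice (adjusted p = 0.308 and 0.225). None of the 4 passed, although each had the same sign in both batches. With 1 mouse left out, the value with HFD lay between -1.07 and -0.46 in young and between -1.28 and -0.70 in old mice.

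Cish (ENSMUSG00000032578, chromosome 9 from 107296026 to 107302784) encodes a related inhibitor that occupies STAT5 docking sites on receptors. It had 3.31, 18.5 and 35.4 CPM (lowest, median, highest) for young ND mice, 1.02, 7.73 and 10.4 for young HFD mice, 7.71, 13.1 and 47.0 for old ND mice and 0.154, 10.04 and 24.8 for old HFD mice. Within every group the range covered several doublings, and over all mice the highest level was 306 times the lowest. All 6 young HFD mice were below the young ND median. The log2 fold change with HFD was -1.49 ± 0.67 (SE, adjusted p = 0.199) in young mice (batch 1 gave -1.32, batch 2 -1.66) and -0.97 ± 0.66 (SE, adjusted p = 0.409) in old mice. With 1 mouse left out it lay between -1.72 and -0.99 in young and between -1.28 and -0.45 in old mice. Exons of Cish share 740 bases with Gm17040 and Gm17041 on the opposite strand, and whether reads were counted by strand is not given in the sources used here.

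Bcl6 (ENSMUSG00000022508, chromosome 16 from 23965052 to 23988852) had 10, 12.1 and 52.7 CPM for young ND mice, 8.24, 25.1 and 53.5 for young HFD mice, 5.50, 14.7 and 30.3 for old ND mice and 6.19, 12.8 and 43.9 for old HFD mice. The groups overlapped almost completely, and each held mice with low and mice with several times higher levels. The 5 log2 fold changes lay between -0.80 and 0.30, each with a standard error of at least 0.53, and none passed.

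**Figure D3:**
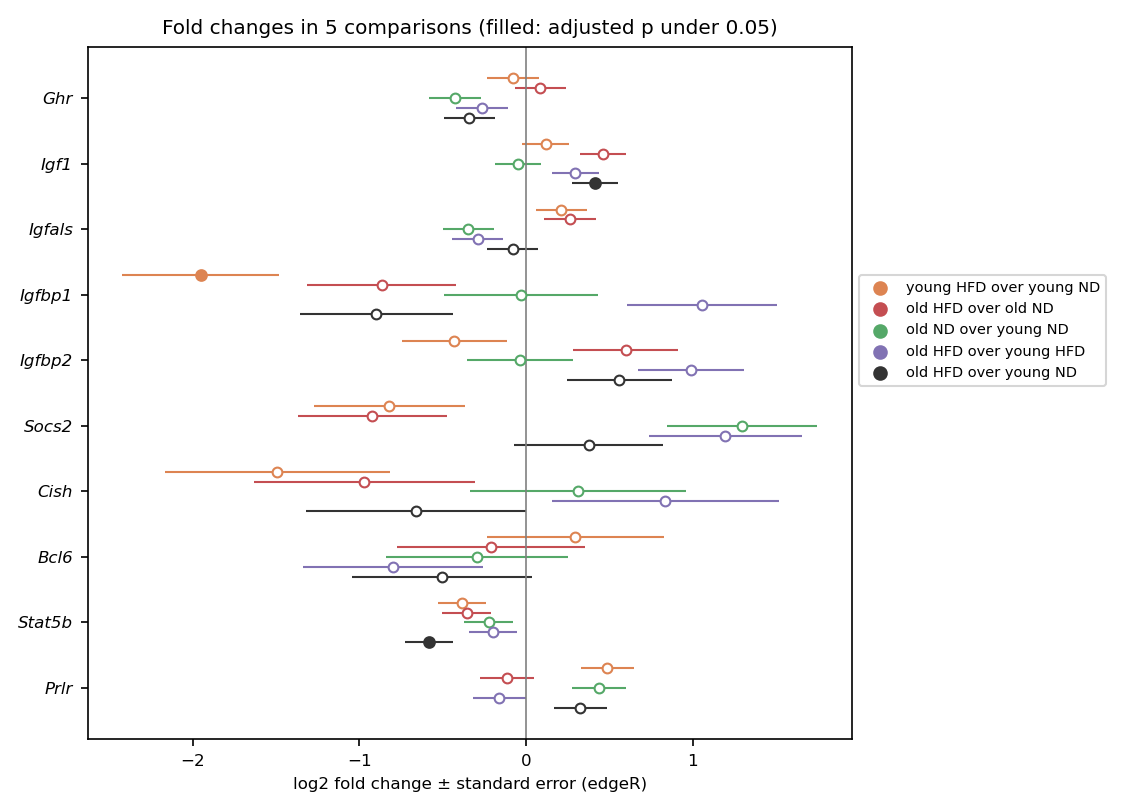
Log2 fold change with its standard error from edgeR for each gene in 5 comparisons. Filled points have an adjusted p under 0.05 (Igfbp1 in young HFD over young ND, Igf1 and Stat5b in old HFD over young ND), and open points do not. Cish, Bcl6, Socs2 and Igfbp1 have the widest bars.

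The spread of Cish within groups and batches was among the widest of all genes. Its SD of log2 CPM was 1.58, above that of 99.7% of the 13583 tested genes, whose median SD was 0.35. Bcl6 (1.03), Igfbp1 (0.92), Socs2 (0.89) and Igfbp2 (0.67) were above 93.0%, 88.1%, 86.6% and 75.3% of all genes. Among genes of a similar level each of these 5 was above at least 96.2%. Ghr, Igf1, Igfals, Stat5b and Prlr had SDs from 0.23 to 0.29, below the median gene. Among genes of a similar level Ghr and Igf1 were above 42.0% and 26.2%, and Igfals, Stat5b and Prlr above 62.6%, 62.7% and 60.6%. The 5 genes with the wide spread were the 2 inhibitors, the repressor Bcl6 and the 2 binding proteins.

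Cish and Bcl6 varied in opposite directions between mice. The 4 mice with the most Bcl6 (young HFD replicates 2 and 4, young ND replicate 1 and old HFD replicate 2) had 53.5, 42.7, 52.7 and 43.9 CPM of Bcl6, and 1.02, 2.41, 3.31 and 0.154 CPM of Cish. The mouse with the least Bcl6, old ND replicate 2 at 5.50 CPM, had 45.0 CPM of Cish. Once group and batch means were removed, Pearson's r was -0.73 (permutation p = 0.00026) and Spearman's rho -0.70 (permutation p = 0.00042) over the 24 mice. Without the 2 mice farthest from the median of Cish, r was -0.69, and it was -0.81 over the 11 mice of batch 1 and -0.68 over the 13 of batch 2. Within the groups r was -0.76 for young ND mice, -0.81 for young HFD mice, -0.84 for old ND mice and -0.79 for old HFD mice, with 6 mice in each. This pair was picked after its values were seen, as the largest of the 45 correlations among the 10 genes, so these p-values are too small. In limma over 13582 genes with group, batch and Cish as terms, the slope of Bcl6 was -0.48 per doubling of Cish (adjusted p = 0.00999). Of all genes 943 passed there, and Bcl6 was at rank 43. With Bcl6 as the term in place of Cish, the slope of Cish was -1.11 at rank 3 (limma, adjusted p = 0.115), and it did not pass.

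**Figure D4:**
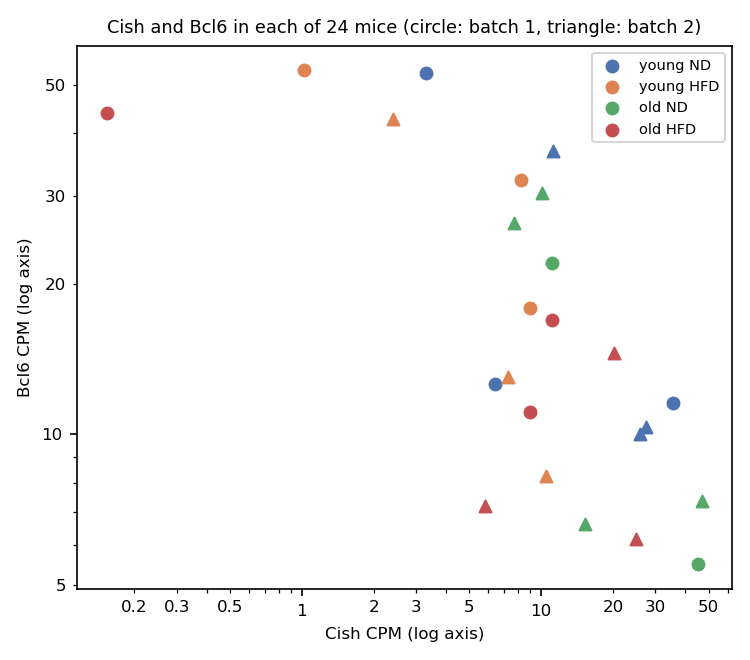
Bcl6 against Cish in each of 24 mice, in CPM on log axes, with colours for groups and shapes for batches. The mice with the most Bcl6 have the least Cish, and all 4 groups are spread along the same direction.

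The gene with the closest relation to Bcl6 was Onecut1, a hepatocyte transcription factor also known as HNF6. It was the 1 gene that passed with Bcl6 as a term, with a slope of -0.76 per doubling of Bcl6 (limma, adjusted p = 0.0152), and with Cish as a term its slope was 0.49 at rank 4 (limma, adjusted p = 0.00433). Onecut1 had 14 ± 8.73 CPM for young ND mice, 5.46 ± 2.92 for young HFD mice, 13.1 ± 10.7 for old ND mice and 8.13 ± 3.47 for old HFD mice (SD, n = 6). Rgs3, a regulator of G protein signalling, had the smallest p with Cish as a term, at a slope of 0.73 (limma, adjusted p = 5.3e-06). Neither gene was chosen by the naming rule. Rgs3 ranged from 0.0768 to 13.6 CPM among old HFD mice. The fits with Cish as a term included old HFD replicate 2, where Cish rested on 2 counts (0.154 CPM). They were not repeated without this mouse, so its part in the slopes and in the number of genes passing was not tested. Among the other members, Igf1 had an r of 0.55 with Cish (permutation p = 0.0337) and a rho of 0.445 (permutation p = 0.0553). Igfals had an r of 0.53 and a rho of 0.34 with Cish. Socs2 had an r of 0.47 (permutation p = 0.0667) and a rho of 0.46 (permutation p = 0.0615) with Cish. The permutation p-values of Igf1 and Socs2 were not adjusted for the number of pairs among the members. In limma with Cish as a term, Igfals was at rank 1931, Igf1 at 2259 and Socs2 at 2284 of 13582 genes. None of these members passed there (limma, adjusted p = 0.0874, 0.105 and 0.106), and many other genes had a smaller p. The r of Igf1 was 0.42 without the 2 farthest mice and -0.23 within young ND, so the relation of Cish and Igf1 did not hold in every group.

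Igf1 (ENSMUSG00000020053, chromosome 10 from 87858265 to 87937042) had 431, 502 and 585 CPM (lowest, median, highest) for young ND mice, 445, 552 and 686 for young HFD mice, 412, 509 and 532 for old ND mice and 501, 666 and 940 for old HFD mice. Igf1 rose in old HFD relative to young ND, with a log2 fold change of 0.41 ± 0.14 (SE, adjusted p = 0.0284), and 4 of the 6 old HFD mice were above every young ND mouse. It was 0.27 in batch 1 and 0.52 in batch 2. Over old ND, the old HFD log2 fold change was 0.46 ± 0.14 (SE, adjusted p = 0.0644), 0.20 in batch 1 and 0.66 in batch 2, with 5 of 6 old HFD mice above every old ND mouse. It did not pass, although it did in 2 of the 24 fits with 1 mouse left out, where it lay between 0.34 and 0.54. Old ND and young ND differed by -0.05 ± 0.14. The 2 highest old HFD mice of batch 2 were replicates 4 and 6, both rich in other cells' transcripts, and without the 4 such mice the old HFD log2 fold change relative to young ND was 0.21 (adjusted p = 0.221), which did not pass. With 1 mouse left out it lay between 0.31 and 0.49, and the call was lost without young ND replicate 1, 2, 4 or 5 or old HFD replicate 4 or 6. The part of these cells in the difference was not tested.

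Igfals (ENSMUSG00000046070, chromosome 17 from 24865997 to 24882010) had 60.9, 85.1 and 104 CPM for young ND mice, 78.2, 93.7 and 125 for young HFD mice, 44.5, 70.2 and 84.2 for old ND mice and 63.5, 74.9 and 109 for old HFD mice. The lowest mice were old ND replicates 3 and 4 at 44.5 and 45.1 CPM, both among the 4 with the highest sums of other cells' markers. Old ND over young ND gave a log2 fold change of -0.35 ± 0.16 (SE, adjusted p = 0.181), and HFD gave 0.21 ± 0.15 in young and 0.27 ± 0.16 in old mice. None passed.

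Igfbp1 (ENSMUSG00000020429, chromosome 11 from 7197782 to 7202546) had 24.9, 61.2 and 110 CPM for young ND mice, 2.71, 18.8 and 48.8 for young HFD mice, 22.1, 86.2 and 194 for old ND mice and 15.2, 39.5 and 114 for old HFD mice. All 6 young HFD mice were below the young ND median, and 4 were below every young ND mouse. Igfbp1 fell in young HFD, with a log2 fold change of -1.95 ± 0.47 (SE, adjusted p = 0.0246), the largest of the 10 genes in any comparison. In old HFD over old ND it was -0.87 ± 0.45 (SE, adjusted p = 0.255), and the interaction did not pass. Within batches the young effect was -2.79 in batch 1 and -0.74 in batch 2, neither of which passed alone, and without the batch term it was -1.56 and did not pass. With 1 mouse left out it lay between -2.22 and -1.58, and the call was lost without young ND replicate 1 or 2 or young HFD replicate 3 or 6.

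Igfbp2 (ENSMUSG00000039323, chromosome 1 from 72824503 to 72852474) had 297, 366 and 444 CPM for young ND mice, 115, 300 and 358 for young HFD mice, 99.3, 409 and 518 for old ND mice and 198, 561 and 1015 for old HFD mice. In old HFD 5 of 6 mice were above every young HFD mouse. Over young HFD, its old HFD log2 fold change was 0.99 ± 0.32 (SE, adjusted p = 0.0888), 0.76 in batch 1 and 1.15 in batch 2, which missed with edgeR and passed with DESeq2 (adjusted p = 0.0269). With HFD it was -0.43 ± 0.32 in young and 0.60 ± 0.32 in old mice. Over the 24 mice the pattern nearest to that of Igfbp2, by the root mean square distance of z-scored log2 CPM, was that of Apoa1 (0.445), followed by Proc (0.623) and Serpina1a (0.645). Apoa1 and Serpina1a are among the hepatocyte markers summed above, and Igfbp2 was lowest in old ND replicate 4, which had the lowest sum of them. The part of hepatocyte content in these patterns was not tested. For Igf1 the nearest were Aqp11 (0.711), Lmbrd1 (0.779) and Slc25a32 (0.795), and for Socs2 they were Ugcg (0.811), Zfp1 (0.821) and Tgm1 (0.829). The nearest neighbour of Igfbp2 was closer than those of the other two.

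Other IGF genes were read in a list of 16 IGF ligands, receptors and binding proteins outside the 10, of which 8 had enough counts to be tested. In young HFD over young ND 1 of the 8 rose, in old HFD over old ND 1, and in old ND over young ND 2, with 0 lower in each. In old HFD over young HFD 0 passed in edgeR, and in old HFD over young ND 5 rose and 1 fell. Of all genes 1.91%, 1.37%, 7.26%, 1.82% and 17.3% were higher in these 5 comparisons, and 12.9% were lower in the last, where most markers of other cells were higher too, as given with Stat5b. The numbers that rose with 1 mouse left out were 1 to 3, 0 to 1, 1 to 3, 0 and 3 to 5. The 8 untested genes had too few counts, and scarce genes such as Igf1r, Igfbp5 and Igfbp3 could pass the count filter through the groups where they were higher, so the counts that rose over young ND are a description of the tested genes and not of the list. Without the 4 mice rich in other cells' transcripts, 4 of the IGF genes rose in young HFD over young ND, 1 (Igfbp3) in old ND over young ND and 1 (Igfbp4) in old HFD over young ND, with 0 in old HFD over old ND. Over all genes 1074, 94, 2605 and 401 of 13593 passed in these fits in the same order, in either direction.

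Igfbp4, a hepatocyte-secreted inhibitor of IGF action, was the abundant one of these, with 1040 ± 157 CPM for young ND mice, 1408 ± 238 for young HFD mice, 1024 ± 223 for old ND mice and 1489 ± 213 for old HFD mice (SD, n = 6). It rose with HFD in old mice by a log2 fold change of 0.58 ± 0.15 (SE, adjusted p = 0.0309), and the value in young mice was 0.44 ± 0.14 (SE, adjusted p = 0.0816). Without the 4 mice the old effect was 0.45 (adjusted p = 0.0939) and did not pass, and the young effect was also 0.45 (adjusted p = 0.0257) and passed. Igfbp5, which binds IGF-1 in the extracellular matrix, had 0.945 ± 0.356 CPM in young ND and 4.17 ± 1.87 in young HFD, a log2 fold change of 2.13 ± 0.44 (SE). Igfbp5, and Igfbp3 below, were scarce in young ND and could pass the count filter through the groups where they were higher. Their values over young ND are therefore a description and no support for a rise. In young HFD over young ND 1 of 11 macrophage, 1 of 8 endothelial and 2 of 9 stellate cell and fibroblast markers rose, with median log2 fold changes of 2.21, 1.49 and 1.59. The summed stellate cell markers were 7.14 to 98.1 CPM in young ND and 21.1 to 297 in young HFD. The part of these markers in the difference of Igfbp5 was not tested. Igfbp3, the main carrier of IGF-1 in blood, had 1.65 ± 1.95 CPM in young ND and 9.77 ± 6.95 in old ND, a log2 fold change of 2.67 ± 0.55 (SE). Igfbp7, a related secreted protein, had 10.9 ± 8.96 and 37.8 ± 33.7 CPM in these groups and rose by 1.70 ± 0.47 (SE, adjusted p = 0.025). Without the 4 mice Igfbp3 was at 2.45, and Igfbp7 did not pass, at 1.28 (adjusted p = 0.199).

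Liver Igfbp3 and Igfbp7 are known mostly from non-parenchymal cells. In old ND over young ND all 11 macrophage markers, 5 of 8 endothelial markers, 8 of 9 stellate cell and fibroblast markers and 2 of 4 tested lymphocyte markers rose as well. The summed endothelial markers were 13.03 to 129 CPM in young ND and 36.9 to 693 in old ND, the summed lymphocyte markers 0.862 to 5.03 and 3.67 to 34.5, and the summed stellate cell markers 7.14 to 98.1 and 96.5 to 516. Their part in the differences of Igfbp3 and Igfbp7 was not tested. None of 9 hepatocyte and 2 tested cholangiocyte markers passed in this comparison in edgeR. Insr, the insulin receptor, stayed between 131 ± 30.5 and 137 ± 18.9 CPM over the groups and did not pass in any comparison. Igf1r, the receptor of IGF-1, is scarce in hepatocytes and had 0.467 ± 0.355 CPM in young ND and 2.49 ± 2.90 among old HFD mice. Its log2 fold change was 1.97 ± 0.66 (SE), and it was 0.89 without the 4 mice (adjusted p = 0.367), which did not pass. Igf1r could pass the count filter through the groups where it was higher, so these values are a description and no support for a rise.

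Genes that differ between male and female liver through the pattern of growth hormone secretion were read in a male-biased and a female-biased list. Of 12 male-biased target genes, all tested, 5 fell in young HFD relative to young ND and 0 rose, with a median log2 fold change of -0.91. In old ND over young ND 4 fell and 0 rose (median -0.73), and in old HFD over young ND 6 fell and 0 rose (median -0.80). In old HFD over old ND and in old HFD over young HFD 0 passed in edgeR (medians 0.06 and 0.14). Between 1.24% and 12.9% of all genes fell in the 3 comparisons with young ND, as given above. Without the 4 mice rich in other cells' transcripts 7, 1 and 6 fell in these 3 comparisons, and in batch 2 alone 0 passed in edgeR in each. Leaving out 1 mouse gave a count of 2 to 5 in young HFD over young ND (moved in 10 of 24 fits), 1 to 4 in old ND over young ND (moved in 6) and 5 to 7 in old HFD over young ND. Over all genes, in either direction, 475, 1155 and 4100 passed in the 3 comparisons. The numbers were 1074, 94 and 2605 of 13593 without the 4 mice, and 9, 2 and 617 of 14243 in batch 2 alone.

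Of 15 female-biased target genes 7 were tested. In young HFD over young ND 6 of the 7 rose, in old ND over young ND 4, in old HFD over young ND 6 and in old HFD over old ND 1, with 0 lower in each. Genes near 0 in young ND, such as Cyp2b13, Cyp2b9 and Cyp2a4, could pass the count filter only through the groups where they were higher, so these counts describe the tested genes and are no support for a change of the list. Of all genes 1.91%, 7.26%, 17.3% and 1.37% were higher in these comparisons. In old HFD over young HFD 0 passed in edgeR. With 1 mouse left out 3 to 6, 3 to 4, 6 and 0 to 2 rose in the same order, and the count of 3 in young HFD was that without young ND replicate 1 or 2. The 3 comparisons with young ND share those 6 mice, so they are not independent of each other. In them 6, 2 and 6 rose without the 4 mice, and in batch 2 alone 1, 0 and 2. The numbers over all genes in these fits are given with the male-biased list. The interaction did not pass in edgeR for any gene of either list, and with DESeq2 it passed for 1 gene of each. These lists were chosen with earlier results of these data known.

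Elovl3, a male-biased fatty acid elongase, had 755 ± 230 CPM for young ND mice, 218 ± 118 for young HFD mice, 265 ± 75.1 for old ND mice and 212 ± 180 for old HFD mice (SD, n = 6). Its log2 fold change was -1.89 ± 0.46 (SE, adjusted p = 0.0251) in young HFD and -1.58 ± 0.45 (SE, adjusted p = 0.0285) in old ND, each over young ND, and without the 4 mice the latter was -1.38 (adjusted p = 0.226). Cyp4a12a, a male-biased fatty acid hydroxylase, had 286 ± 66.2, 108 ± 28.5, 108 ± 32.5 and 124 ± 60.2 CPM in the same order of groups. Serpina1e, a male-biased protease inhibitor, had 6112 ± 1885 CPM in young ND and 1265 ± 658 in young HFD, and its log2 fold change was -2.34 ± 0.49 (SE, adjusted p = 0.0106). Slco1a1, an uptake transporter, fell in old HFD relative to young ND, with a log2 fold change of -1.60 ± 0.40 (SE, adjusted p = 0.00583). All but Elovl3 and Slco1a1 belong to families of near-identical copies, so their reads may be shared with relatives.

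Cyp2b9, a female-biased P450, had 0.303 ± 0.300 CPM for young ND mice, 71.5 ± 55.6 for young HFD mice, 8.37 ± 6.75 for old ND mice and 68.1 ± 47.0 for old HFD mice (SD, n = 6). Its log2 fold change was 7.67 ± 0.81 (SE) in young HFD over young ND. This value is a description, because young ND was near 0 and Cyp2b9 could pass the count filter only through the other groups. In old HFD over old ND the log2 fold change of Cyp2b9 was 2.54 ± 0.60 (SE, adjusted p = 0.0245). Cyp2b13, its close copy, had 0 counts in every young ND mouse and 12.6 ± 12.4 CPM in old HFD, which is at least 462-fold higher when young ND is set to 3 counts over the group. Cyp2a4 had 0.293 ± 0.176 CPM in young ND mice and 17.6 ± 20.9 in old HFD mice, and the reads of these 3 genes may be shared within their families. Atp6v0d2, a proton pump subunit with no such copy, had 1.14 ± 0.422 CPM for young ND mice, 4.92 ± 2.52 for young HFD mice, 5.01 ± 3.22 for old ND mice and 11.6 ± 10.2 for old HFD mice, and it is also known from macrophages and osteoclasts. Cux2, a repressor characteristic of female liver, had too few counts to be tested, with 8 counts over all young ND mice and 41 over all old HFD mice.

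**Figure D5:**
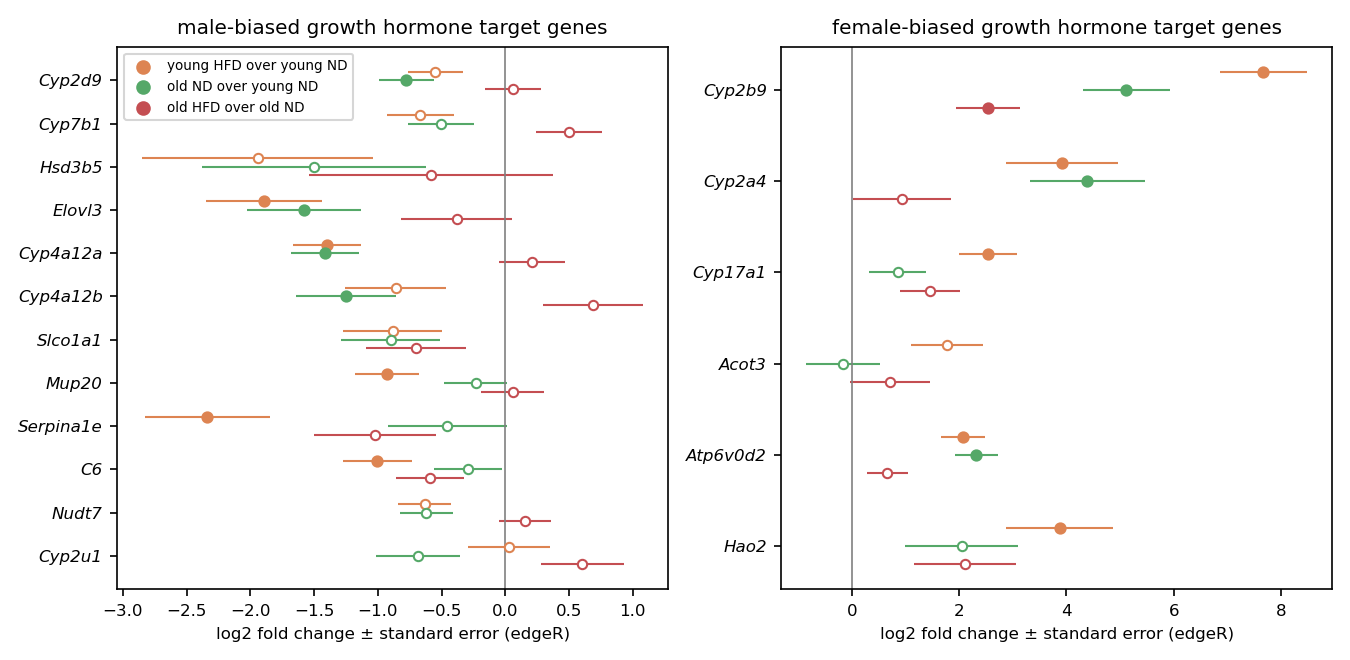
Log2 fold change with its standard error from edgeR for the tested male-biased (left) and female-biased (right) growth hormone target genes in 3 comparisons. Filled points have an adjusted p under 0.05. Cyp2b13 is left out because all young ND mice are at 0 counts, and the 2 panels have different x axes. Cyp2b9 and Cyp2a4 are near 0 in young ND, so their points over young ND, filled or open, are a description.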

How the data were processed

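Counts of 24 mice were analysed, each assigned to group, replicate and batch from the sample labels. The authors aligned reads with STAR 2.7.3a in 2-pass mode to mm10 with a Gencode annotation and counted them per gene with HTSeq 0.11.2, and the deposited counts are whole numbers without normalization (FastQC 0.11.8 is also named in the submitters' processing notes). The deposited FPKM values were made by the authors with CuffLinks and adjusted between batches with ComBat. Of 7309 genes with at least 10 CPM, 95.7% had an FPKM within 20% of what the gene's whole genomic span would give, and 4.79% within 20% of what its exons would give. FPKM was therefore used only for comparisons of a gene with itself, and levels between genes were compared per kilobase of GENCODE M21 exons (GRCm38). The number of columns with no matching sample was 0.

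The main test was edgeR 4.0.16 in R 4.3.3 (TMM, filterByExpr by group, quasi-likelihood F tests, group and batch as terms). Log2 CPM used a prior count of 2. No molecular identifiers were used, so counting noise is only the least error, and totals per mouse of 9200332 to 22185069 set the precision of low genes. Counts of mice of a group differed by more than sampling noise (the lowest chi-square per degree of freedom was 14.5). The test was also run on simulated counts, whose outcome is not given here. The simulation held no batch effect and no mice rich in other cells' transcripts, so it cannot show how the test does with them. Relations between genes used 100000 permutations of residuals, two-sided, and limma 3.58.1. Alternatives were DESeq2 1.42.0, no batch term, the replicate number as a block, RLE normalization, no count filter, the mice of 2 groups alone, limma on log2(FPKM + 1) and log2(FPKM + 0.1), each batch alone, each mouse left out and, added after the data were seen, 4 mice left out and the fits with a gene as a term.

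The 10 genes and all gene lists were chosen with earlier results of these data known. By rule, all 10 genes were named, and of each list the 4 genes with the smallest adjusted p plus Jak2, Stat5a, Igf1r, Insr, Igfbp3, Igfbp4 and Cux2. A gene that this rule names is not reported here. Nnt, which is partly deleted in C57BL/6J, was named as a check of the substrain labels, but the table holds 2 entries named Nnt, of which 1 is at 0 counts in all mice, and the check was not informative. The Socs2 promoter was not analysed here. Figures used Python 3.11.15, numpy 2.4.6, pandas 2.3.3, scipy 1.17.1 and matplotlib 3.10.9.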

Additional observations from a re-analysis of the deposited data

Results flagged for a closer look

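In 4 of the 40 sets of 6 mice (10 genes in 4 groups) the lowest mouse, on the scale of log2 CPM, stood apart from the rest by more than Dixon's 95% limit for 6 values, and chance alone flags about 1 set in 20. Igfbp2 had 115 CPM in young HFD replicate 2, where the other 5 mice had 282 to 358. It had 99.3 CPM in old ND replicate 4, where the others had 336 to 518, and this mouse had the highest summed markers of macrophages, lymphocytes and endothelial cells and the lowest hepatocyte markers. Cish had 0.154 CPM in old HFD replicate 2, where the others had 5.80 to 24.8. Stat5b had 23.1 CPM in the same mouse, where the others had 36.6 to 46.3. On the scale of CPM itself, only Igfbp2 in young HFD replicate 2 of these 4 passed the limit.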

How the results depend on the processing

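The number of the 10 genes that passed was small and moved with the fit. In young HFD over young ND it was 1, and it was 2 with DESeq2, 3 with no count filter, 3 with the mice of the 2 groups alone, and 0 without the batch term, with limma on log2(FPKM + 1) or log2(FPKM + 0.1), and in batch 1 or batch 2 alone. Between old HFD and young ND it was 2, and it was 5 with no count filter, 1 with the 2 groups alone, 1 without the 4 mice rich in other cells' transcripts, and 0 in batch 1 or batch 2 alone, which hold fewer mice. Of the comparisons with 0, old HFD over old ND gave 1 with DESeq2 and 4 with no count filter, old ND over young ND 1 with each, old HFD over young HFD 1 and 5, and the interaction 2 with no count filter. Without the filter 32336 genes were tested, the standard error of Igfbp1 in young HFD over young ND was 0.16 in place of 0.47, and the cause of the larger counts was not tested. With 1 mouse left out in 24 fits, the counts were 0 to 2, 0 to 1, 0 to 1, 0 to 1 and 1 to 4 in the order young HFD over young ND, old HFD over old ND, old ND over young ND, old HFD over young HFD and old HFD over young ND. Over all genes, the number passing in young HFD over young ND was 475, beside 1213 with DESeq2, 1473 with no count filter, 2302 with the 2 groups alone, 1074 without the 4 mice, 283 with the replicate block, 174 without the batch term, 179 and 152 with limma at pseudocounts of 0.1 and 1, and 130 and 9 in batches 1 and 2. Between old HFD and young ND the number was 4100, and it lay between 617 (batch 2) and 5008 (DESeq2). The counts of old HFD over old ND (409), old ND over young ND (1155) and old HFD over young HFD (304) reached 1108, 2053 and 1235 with no count filter and were 16, 2 and 0 in batch 2 alone. With the 2 groups alone they were 15, 1331 and 48, without the 4 mice 401, 94 and 94, and with DESeq2 1085, 1761 and 850. Each mouse left out in turn gave 146 to 998 in young HFD over young ND, 84 to 823, 586 to 1592 and 40 to 813 in these 3, with the lowest counts without young ND replicate 2, old ND replicate 2, old ND replicate 4 and young HFD replicate 4 in this order, and 3314 to 4722 in old HFD over young ND. The interaction gave 0, and 7 with DESeq2 and 587 with no count filter. RLE normalization changed 0 of 50 fold changes in direction or call.

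Same-numbered mice had a mean correlation of 0.182 over 36 pairs (-0.32 to 0.551), 21 pairs were above 0.1 and 7 mice correlated best with their own number, so the numbers were not taken to pair mice. With a replicate block and no batch term, 0 of the 10 genes passed in young HFD over young ND and 1 (Ghr) in old ND over young ND, and the block turned Igfbp1 to 0.32 and Igfbp2 to 0.017 in old ND over young ND, while the calls of Igf1 and Stat5b were kept.

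None of the fold changes that turned direction under an alternative had passed as reported. In old ND over young ND, Igfbp1 (log2 fold change -0.03) was 0.50 without the batch term, 0.33 with the 2 groups alone, 0.23 and 0.28 with limma at pseudocounts of 1 and 0.1, and 1.02 in batch 2. Igfbp2 (-0.04) was 0.0075 without the batch term, 0.036 with the 2 groups alone, 0.064 in batch 1 and 0.17 without the 4 mice. Igf1 (-0.05) was 0.0021 and 0.0027 with limma at pseudocounts of 1 and 0.1, 0.080 in batch 1 and 0.045 without the 4 mice, and Cish (0.31) was -0.061 with limma at a pseudocount of 0.1 and -0.12 in batch 2. For old HFD over old ND, Bcl6 (-0.21) was 0.026 without the batch term, 0.75 in batch 1 and 0.69 without the 4 mice, and in batch 1 Ghr (0.09) was -0.085 and Prlr (-0.11) was 0.24. Igf1 was -0.024 in old HFD over young HFD in batch 1 and -0.054 in young HFD over young ND in batch 2. Igfbp1 was 0.40 in old HFD over young ND in batch 2, and Socs2 was -0.11 there without the 4 mice. With 1 mouse left out, direction turned for Bcl6 in young HFD over young ND (-0.043 to 0.67), in old HFD over old ND (-0.62 to 0.12) and in old ND over young ND (-0.59 to 0.15), for Ghr in old HFD over old ND (-0.010 to 0.16), and in old ND over young ND for Igf1 (-0.098 to 0.018), Igfbp1 (-0.32 to 0.32), Igfbp2 (-0.15 to 0.17) and Cish (-0.22 to 0.79). The cause of these turns was not tested. Depth limits low values such as that of Cish in old HFD replicate 2, which rests on 2 counts.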
